A study of Mus musculus with 19 samples.

Results

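Cholesterol synthesis and SREBP2 target genes were followed in livers of mice with thioacetamide (TAA)-induced fibrosis that had received miR-34b/c in hepatocytes. The set is a fixed list of 27 genes, taken from a table of 31053 genes, and holds 19 enzymes of the pathway from acetyl-CoA units to cholesterol, 4 genes that control SREBP2 and 4 further sterol-regulated genes. Members were listed by name, with earlier results of these data known, so that shares of members called are descriptive. All 27 were listed in the table and passed the filter on low counts in each comparison.

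Livers were from male C57BL/6 mice (strain given as C57BL6J in the sample records) that are described as 6 to 8 weeks old, an age that precedes the weeks of treatment. Vehicle mice received PBS (n = 5). Both other groups received intraperitoneal TAA, a hepatotoxin, for 12 weeks at doses rising from 50 to 400 mg/kg, and at week 10 AAV8 vectors at 1e13 genome copies/kg, with expression from the hepatocyte-specific TBG promoter. AAV-GFP mice (n = 7) received a vector for eGFP, and AAV-miR-34b/c mice (n = 7) received separate vectors for miR-34b and miR-34c together (whether the dose is per vector is not given in the sources used here). All TAA-treated mice were sacrificed 4 weeks after the vectors. It is not stated in the sources used here whether vehicle mice received a vector, so TAA and vector cannot be told apart in comparisons with vehicle, whereas AAV-miR-34b/c and AAV-GFP mice share TAA, serotype and promoter. Feeding state and hour of collection are not given in the sources used here. Whole-liver RNA was read from the 3′ ends of its polyadenylated transcripts, and each library is labelled as a separate biological replicate. In such bulk samples, fewer cells of a type and less RNA per cell cannot be told apart.

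Cholesterol is built in the endoplasmic reticulum from acetyl-CoA through mevalonate, the prenyl diphosphates, squalene and lanosterol. When sterols in that membrane are low, SCAP escorts the precursor of SREBP2 to the Golgi, where proteases release its transcription factor domain, which then activates most genes of the pathway together with NF-Y and Sp1. When sterols are high, the INSIG proteins hold SCAP in the endoplasmic reticulum. The liver, and within it the hepatocyte, is a major site of this synthesis.

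Depth was moderate, with total counts per library of 2214073 to 4145454 in vehicle mice, 2463842 to 4383805 in AAV-GFP mice, with 2717503 to 5208405 in AAV-miR-34b/c mice. Hepatocyte markers were high in every group, as given below. Within groups, 6 pairs of libraries (vehicle 1 and 4, vehicle 3 and 5, AAV-GFP 1 and 2, and AAV-miR-34b/c 1 and 2, 3 and 4, and 5 and 7) were closer to each other than the other 46 pairs, with a coefficient of variation beyond counting noise of 0.0812 to 0.171 against 0.215 to 0.480. They still differed by more than counting noise, and each was kept as its own sample. Summing each pair into 1 sample left 3, 6 and 4 samples. Counts of members and of all genes called are given both ways. Calls of the other gene lists and of cell type markers are given only with each library as its own sample. Among TAA-treated mice 3 libraries, AAV-GFP 7 and the close pair AAV-miR-34b/c 5 and 7, stood apart in circadian clock genes. *Dbp*, a clock output gene, was at 88.7, 82.9 and 80.6 CPM in them, within the vehicle range of 64.5 to 107 CPM, and at 0.789 to 35.9 CPM in the other 11 libraries of TAA-treated mice. CPM here are library-scaled counts after TMM normalization, which assumes that most genes do not differ between libraries.

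Transcripts of the set as a whole were most abundant in AAV-miR-34b/c mice. The summed CPM of the 27 genes was 3210, 2609, 2596, 3181 and 2576 in vehicle mice 1 to 5. In AAV-GFP mice it was 2386 at the lowest, 2625 at the median and 3199 at the highest, and in AAV-miR-34b/c mice 3346, 3585 and 4281. Vehicle and AAV-GFP mice thus overlapped, and all 7 AAV-miR-34b/c mice lay above all 12 others in TMM-scaled CPM. The margin was narrow, with 3346 CPM against 3210 CPM in the highest vehicle mouse. Sums under other scalings were not taken, so whether this separation depends on TMM was not tested. Median log2 fold changes of the members were -0.15 for AAV-GFP over vehicle, 0.34 for AAV-miR-34b/c over vehicle and 0.39 for AAV-miR-34b/c over AAV-GFP, against -0.01, 0.02 and -0.01 over all genes tested. Scaling by library size alone shifted the median of all genes by 0.06, -0.14 and -0.19 from the TMM value and gave member medians of -0.08, 0.21 and 0.18. These comparisons share groups of mice, so that each is described by its own values.

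**Figure D1:**
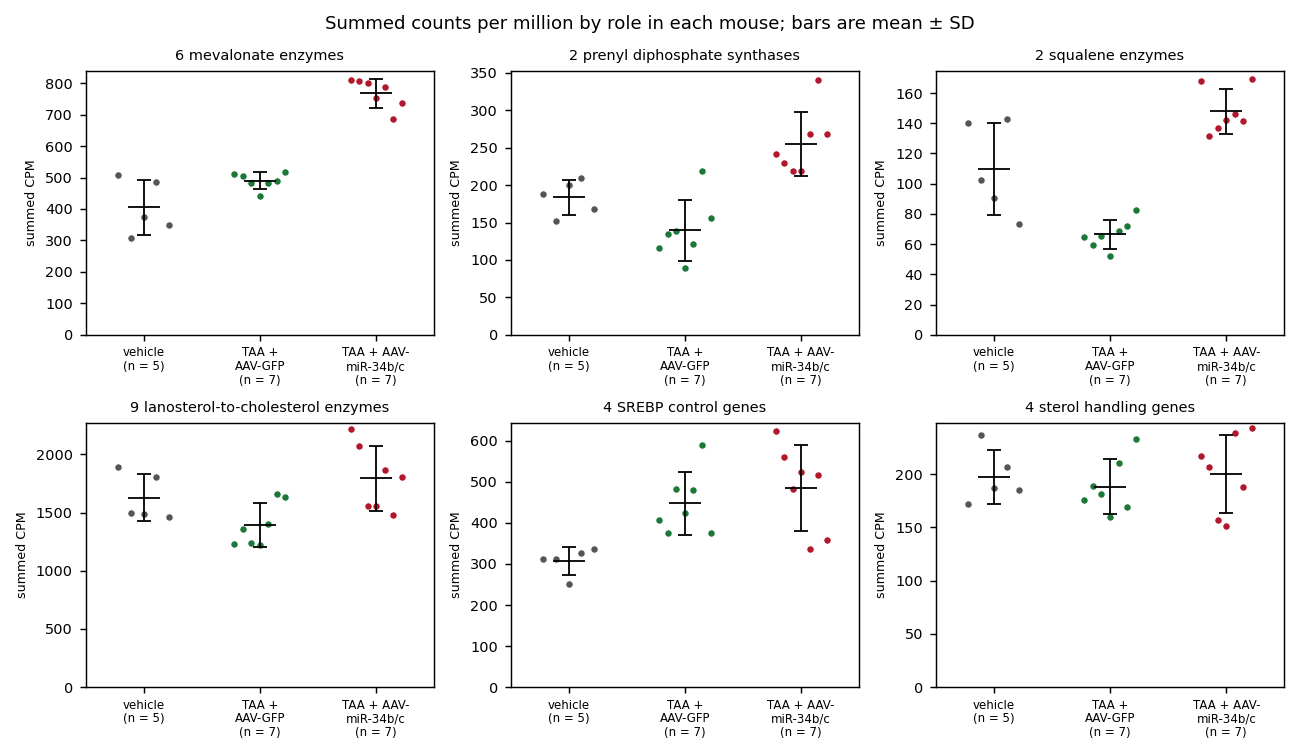
Summed CPM (vertical axes) of the members by role in each mouse (points) of the 3 groups, with mean ± SD (bars). For the 6 mevalonate enzymes and the 2 squalene enzymes, all AAV-miR-34b/c mice lie above all AAV-GFP mice, whereas the SREBP control genes and the sterol handling genes overlap between these groups.

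The first comparison, AAV-GFP against vehicle, shows the set in TAA-treated liver without delivered miR-34b/c. *Sqle* fell and *Insig2* rose, and the other 25 members did not pass the test. By edgeR's quasi-likelihood test with Benjamini-Hochberg adjustment over 9522 genes, 1 of 27 members was higher (with 7.54% of all genes called higher) and 1 was lower (with 5.19% of all genes called lower). Both shares are near or below those of all genes. Both genes were also called with close pairs summed.

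When AAV-miR-34b/c mice were set against AAV-GFP mice, from which they differ in the transgene, genes along the synthesis route rose. These were *Hmgcs1*, *Pmvk* and *Mvd* of the mevalonate steps, *Fdps*, *Fdft1* and *Sqle* of the isoprenoid and squalene steps, and *Lss* and *Dhcr7* at the start and the end of the sterol steps. *Soat2*, which encodes a cholesterol-esterifying enzyme, fell. Thus 8 of 27 members were called higher, with 1.95% of 9252 genes called higher, and 1 of 27 was called lower, with 1.42% of all genes called lower. With close pairs summed, *Sqle* and *Lss* were still called higher and *Soat2* lower, and the other 6 were not called, with adjusted p from 0.0779 for *Fdps* to 0.196 for *Dhcr7* (edgeR). Scaled by library size alone, 5 members were higher and 1 lower, with *Fdft1*, *Lss* and *Dhcr7* lost. Of all genes, 119 were then higher and 505 lower in place of 180 and 131.

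Against vehicle, AAV-miR-34b/c mice had 9 of 27 members higher (12.2% of 9290 genes were called higher) and 2 of 27 lower (9.75% of all genes were called lower). The 9 were *Acat2*, *Hmgcs1*, *Mvk*, *Mvd*, *Fdps*, *Fdft1*, *Lss*, *Srebf2* and *Insig2*, and those that fell were *Scap* and *Soat2*. With close pairs summed, *Hmgcs1*, *Mvd*, *Fdft1*, *Lss* and *Insig2* were called and the other 6 were not. Scaled by library size alone, 7 were higher and 2 lower, with 730 of all genes higher and 1616 lower in place of 1131 and 906. Groups did not overlap for 7 members in this comparison, for 2 when AAV-GFP was set against vehicle and for 3 when the TAA-treated groups were set against each other, with 7.92%, 4.79% and 1.37% of all genes tested not overlapping, and every one of these members passed the test.

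**Figure D2:**
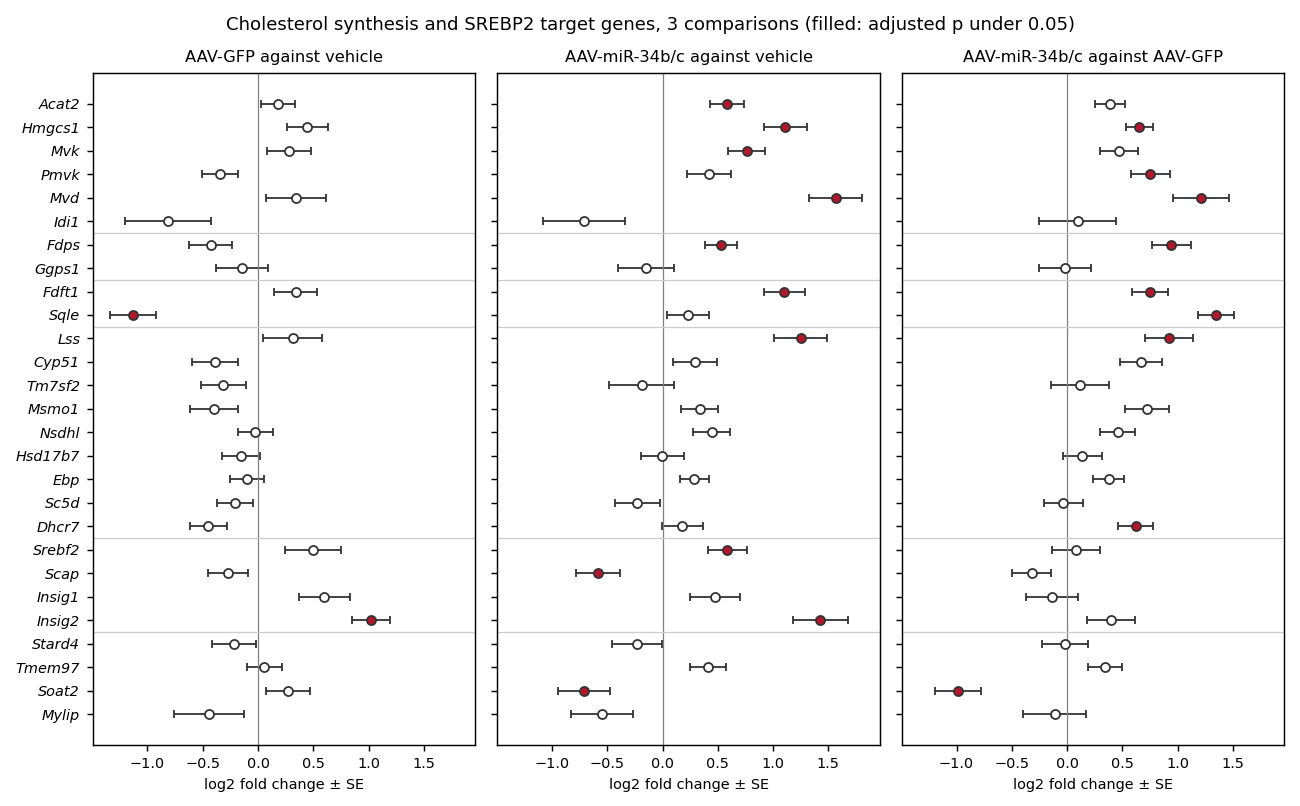
Fold change of each of the 27 members (rows, in the order of the pathway, with grey lines between roles) on a log2 scale with its standard error (horizontal axes), for the 3 comparisons. Filled points passed an edgeR adjusted p of 0.05, which holds for 2, 11 and 9 members.

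Clock genes were lower in sum in most TAA-treated mice. Over the list of 16 clock and clock output genes, the summed level was 373 to 624.9 CPM in vehicle mice, 163 to 411 CPM in AAV-GFP mice and 147 to 576 CPM in AAV-miR-34b/c mice, the values of 570 and 576 CPM being those of libraries 5 and 7. In the test, 3 of 15 clock genes were higher and 4 lower in AAV-GFP than in vehicle mice (edgeR), with 7.54% and 5.19% of all genes. For AAV-miR-34b/c against vehicle mice, 2 of 14 were higher and 3 lower, with 12.2% and 9.75% of all genes. Between the TAA-treated groups, 0 of 12 passed the test in either direction, with 2 of 12 at an unadjusted p under 0.05 and 0 called by DESeq2. Cholesterol synthesis is known to vary over the day in liver, and the part of the clock genes in the differences from vehicle was not tested.

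With AAV-GFP 7 and AAV-miR-34b/c 5 and 7 left out, a choice made after the data were seen, 4 members were called between AAV-GFP and vehicle (*Sqle* lower, and *Insig2*, *Srebf2* and *Insig1* higher, the latter pair with adjusted p = 0.0465 and 0.0433), 9 for AAV-miR-34b/c over vehicle (*Fdps* and *Srebf2* lost) and 7 for the TAA-treated groups against each other (*Lss*, adjusted p = 0.132, and *Dhcr7*, adjusted p = 0.0646, lost; edgeR). Over all genes, 1749 of 9389, 1352 of 9123 and 309 of 9545 were then called, in place of 1212, 2037 and 311. Among the 3 libraries themselves, the AAV-GFP one had 51.8 CPM of *Sqle* and the AAV-miR-34b/c ones 104 and 123 CPM. For *Hmgcs1* these levels were 313 CPM against 528 and 449 CPM, for *Mvd* 21.8 against 51.8 and 57.5 CPM, and for *Fdps* 135 against 247 and 247 CPM. They were 38.4 against 59.6 and 66.4 CPM for *Pmvk*, 30.7 against 41.6 and 46.5 CPM for *Fdft1*, 7.36 against 18.3 and 21.7 CPM for *Lss*, and 47.05 against 65.95 and 61.97 CPM for *Dhcr7*. *Soat2*, at 16.6 against 9.52 and 14.5 CPM, was within the range of AAV-GFP mice in library 7. With 1 library on one side and a close pair on the other, these values have no test.

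Markers of other cell types also moved. The summed level of 6 neutrophil markers was 14.7 to 74.3 CPM in AAV-GFP mice and 62.7 to 1900 CPM in AAV-miR-34b/c mice, and all 3 that could be tested were called higher in the latter. It was lowest in AAV-miR-34b/c libraries 5 and 7, within the vehicle range of 16.5 to 79.9 CPM. Activated hepatic stellate cell (HSC) markers, 10 in all, summed to 55.9 to 126 CPM in vehicle mice, 144 to 263 CPM in AAV-GFP mice and 73.0 to 119 CPM in AAV-miR-34b/c mice, with 5 of 8 tested called higher in AAV-GFP than in vehicle mice and 2 of 6 called lower in AAV-miR-34b/c than in AAV-GFP mice. The 9 hepatocyte markers in the table summed to 86510 to 108600 CPM in vehicle mice, 77240 to 94390 CPM with eGFP and 83610 to 130700 CPM with the miRNAs, with 1 called higher (*Fgb*) between the TAA-treated groups. The 10 macrophage markers summed to 480.1 to 940.8 CPM in vehicle mice, 420.5 to 684 CPM in AAV-GFP mice and 595 to 880.1 CPM in AAV-miR-34b/c mice, with 3 of 10 called lower in AAV-GFP than in vehicle mice and 2 of 10 (*Cd5l* and *C1qb*) called higher in AAV-miR-34b/c than in AAV-GFP mice. Endothelial markers, 7 in all, summed to 192 to 243 CPM, 161 to 221 CPM and 223 to 275 CPM in these groups, with 1 of 6 tested (*Lyve1*) called higher between the TAA-treated groups. Cholangiocyte markers, 6 in all, summed to 18.7 to 41.05 CPM in vehicle mice, below 53.7 to 94.6 CPM in AAV-GFP mice and 49.2 to 118 CPM in AAV-miR-34b/c mice. Of 2 tested, 1 was called higher in each against vehicle, and DESeq2, which tested more of them, called 4 in AAV-GFP and 1 in AAV-miR-34b/c mice. Most of the sum came from *Sox9*, at a mean of 18.2, 34.2 and 48.5 CPM in the 3 groups, and *Spp1*, which is also among the HSC markers, whereas *Krt7*, *Krt19*, *Epcam* and *Cldn4* had means of at most 3.58 CPM, each highest in AAV-GFP mice. Of 7 T and B cell markers, at 8.56 to 19.9, 3.88 to 13.8 and 6.71 to 13.3 CPM in sum, the 1 tested was called lower in AAV-GFP than in vehicle mice. Beside these counts, 7.54% of all genes were called higher and 5.19% lower in AAV-GFP against vehicle mice. For AAV-miR-34b/c mice the shares were 12.2% and 9.75% against vehicle, and 1.95% and 1.42% against AAV-GFP (edgeR). The part of these cell type markers, those of neutrophils included, in the results was not tested.

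**Figure D3:**
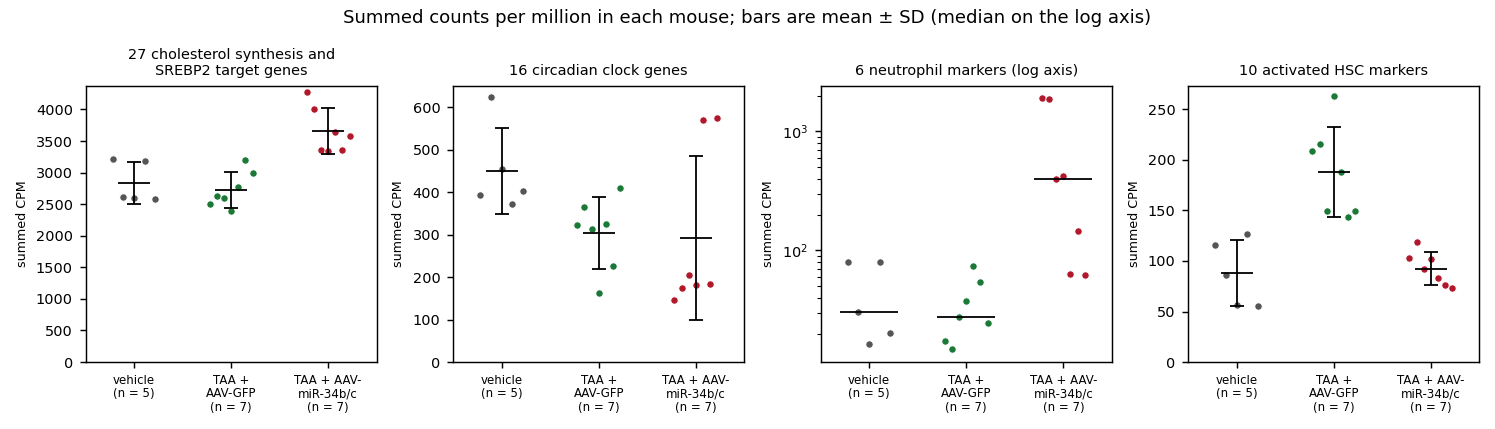
Summed CPM (vertical axes, a log axis for neutrophil markers) in each mouse (points) for the 27 members and for lists of clock genes, neutrophil markers and activated HSC markers, with mean ± SD (bars) or the median on the log axis. Neutrophil markers spread from 62.7 to 1900 CPM among AAV-miR-34b/c mice, and activated HSC markers are highest in AAV-GFP mice.

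Promoters of members that moved are shown because SREBP2 is known to act with NF-Y and Sp1 at promoters of the pathway. Each is 300 bases of RefSeq sequence on GRCm38.p6, from 250 bases before the annotated start to 50 bases after it, 5′ to 3′ on the gene's strand. Capitals mark TCACNCCAC, a form of the sterol regulatory element, and CCAAT, the NF-Y box, on either strand (ATTGG where the box lies on the other strand). *Hmgcs1* was the 1 member with the sterol element, *Mvd* had the largest fold change of the members in AAV-miR-34b/c over vehicle mice, *Lss* opens the sterol steps, and *Insig2* (the first of its 3 annotated starts) rose in both comparisons with vehicle.
Hmgcs1, chr13:119690101-119690400, plus strand: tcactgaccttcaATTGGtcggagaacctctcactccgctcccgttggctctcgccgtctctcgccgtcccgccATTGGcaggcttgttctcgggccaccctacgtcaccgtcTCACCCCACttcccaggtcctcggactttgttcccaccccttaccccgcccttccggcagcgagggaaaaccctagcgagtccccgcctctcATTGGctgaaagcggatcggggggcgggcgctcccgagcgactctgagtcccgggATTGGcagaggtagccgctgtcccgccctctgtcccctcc
Mvd, chr8:122443373-122443672, minus strand: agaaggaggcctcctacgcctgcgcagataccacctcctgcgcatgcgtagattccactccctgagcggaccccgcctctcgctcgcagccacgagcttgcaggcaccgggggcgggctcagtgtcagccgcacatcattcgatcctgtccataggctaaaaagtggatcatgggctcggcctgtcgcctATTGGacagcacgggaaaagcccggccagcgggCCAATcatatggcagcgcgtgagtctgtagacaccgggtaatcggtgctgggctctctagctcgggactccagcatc
Lss, chr10:76531355-76531654, plus strand: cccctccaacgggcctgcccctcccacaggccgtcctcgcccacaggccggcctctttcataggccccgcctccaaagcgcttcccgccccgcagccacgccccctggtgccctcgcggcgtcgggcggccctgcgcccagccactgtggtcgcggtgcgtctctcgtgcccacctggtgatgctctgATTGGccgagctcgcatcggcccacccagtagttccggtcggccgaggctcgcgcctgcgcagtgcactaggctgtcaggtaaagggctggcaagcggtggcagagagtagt
Insig2, chr1:121332540-121332839, minus strand: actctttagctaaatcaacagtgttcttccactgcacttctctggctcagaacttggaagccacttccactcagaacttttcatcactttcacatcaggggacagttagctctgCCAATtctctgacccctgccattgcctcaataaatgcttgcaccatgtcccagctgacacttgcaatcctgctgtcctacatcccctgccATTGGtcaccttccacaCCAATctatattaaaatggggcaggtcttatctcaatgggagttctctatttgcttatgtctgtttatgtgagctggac

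In the *Hmgcs1* window, TCACCCCAC starts at position -137 from the annotated start, between CCAAT boxes at -176 and -45, with further boxes at -237 and 11. The *Mvd* window holds CCAAT boxes at -60 and -27, that of *Lss* a box at -62, and that of *Insig2* boxes at -136, -46 and -29. Windows at the other annotated starts of *Insig2*, not shown, hold GGGCGG and no CCAAT. Positions are those of the leftmost base of each match. Promoter sequences matched for 22 of 27 members, and windows of *Fdps*, *Fdft1*, *Sqle*, *Stard4* and *Soat2* were not used here. Searching both strands of all windows of a gene, CCAAT occurred in 20 of these 22 members (90.9%), against 41.1% of 27025 genes and 42.9% of the 7745 among them that were tested for expression. GGGCGG, the Sp1 box, occurred in 20 of 22 members, against 38.2% of all genes and 69.0% of those tested. TCACNCCAC was found in 1 of 22 members (4.55%), with 1.44% of all genes and 1.51% of tested genes holding it. The looser TCACNCNAC added *Nsdhl*, with TCACCCAAC at -205, and occurred in 3.15% of all genes. The *Scap* and *Acat2* windows held GGGCGG and no CCAAT. A match describes letters in this window only.

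The mevalonate steps comprise *Acat2*, *Hmgcs1*, *Mvk*, *Pmvk*, *Mvd* and *Idi1*. *Hmgcs1* (ENSMUSG00000093930, chromosome 13, 119690379 to 119708260, GRCm38) encodes the cytosolic synthase that makes HMG-CoA. Its level was 299.6, 153, 165, 304 and 185 CPM in vehicle mice 1 to 5. In AAV-GFP mice it ranged from 281 to 341 CPM with a median of 298 CPM, and in AAV-miR-34b/c mice from 369 to 528 CPM with a median of 480.5 CPM. Vehicle mice 1 and 4, a close pair, reached the AAV-GFP range, the other 3 vehicle mice lay below it, and AAV-miR-34b/c mice overlapped neither group. *Hmgcs1* rose 1.57-fold between AAV-GFP and AAV-miR-34b/c (log2 fold change 0.65 ± 0.12 SE, edgeR adjusted p = 0.00485) and 2.16-fold over vehicle (log2 fold change 1.11 ± 0.19 SE, adjusted p = 0.001405). All 7 AAV-miR-34b/c mice were above all 7 AAV-GFP mice (p = 0.000583 by a two-sided exact permutation of log2 CPM, which is as low as these groups allow). Against AAV-GFP, the call was lost with close pairs summed (adjusted p = 0.0938).

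*Mvd* (ENSMUSG00000006517, chromosome 8, 122433601 to 122443422) encodes the decarboxylase that makes isopentenyl diphosphate. Vehicle mice had 20.2, 15.8, 29.8, 17.4 and 15.3 CPM. AAV-GFP mice spread from 12.9 to 39.6 CPM (median 21.8 CPM) and AAV-miR-34b/c mice from 33.2 to 77.6 CPM (median 57.5 CPM). AAV-miR-34b/c mice 1 and 2 lay at 33.2 and 38.3 CPM, within the AAV-GFP range, and the other 5 above it. The rise was 2.31-fold over AAV-GFP (log2 fold change 1.21 ± 0.25 SE, edgeR adjusted p = 0.0106) and 2.96-fold over vehicle (log2 fold change 1.56 ± 0.24 SE, adjusted p = 0.000669), in which groups did not overlap. With close pairs summed the adjusted p against AAV-GFP was 0.0876.

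Phosphomevalonate kinase, the product of *Pmvk* (ENSMUSG00000027952), acts one step earlier. *Pmvk* transcripts were at 72.4, 53.6, 64.9, 63.8 and 50.7 CPM in vehicle mice, 38.4 to 60.2 CPM (median 47.3 CPM) in AAV-GFP mice and 59.6 to 113 CPM (median 66.4 CPM) in AAV-miR-34b/c mice. AAV-miR-34b/c mice 1, 2 and 6 were at 100, 113 and 106 CPM and the other 4 were all between 59.6 and 66.4 CPM, close to the highest AAV-GFP mouse. *Pmvk* rose 1.69-fold over AAV-GFP (log2 fold change 0.75 ± 0.18 SE, edgeR adjusted p = 0.0214) and did not pass the test against vehicle (log2 fold change 0.42, adjusted p = 0.129). Without AAV-GFP mouse 1 the adjusted p over AAV-GFP was 0.0549, and with the replicate number as a block it was 0.0640 (edgeR).

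*Acat2*, which encodes the acetoacetyl-CoA thiolase that opens the pathway, and *Mvk*, which encodes mevalonate kinase, rose over vehicle in AAV-miR-34b/c mice. *Acat2* was at 74.5, 54.96, 86.3, 73.1 and 73.6 CPM in vehicle mice, 71.5 to 93.8 CPM in AAV-GFP mice (median 81.7 CPM) and 85.6 to 127 CPM in AAV-miR-34b/c mice (median 108 CPM). Its log2 fold change over vehicle was 0.58 ± 0.15 SE (edgeR adjusted p = 0.0140), and 6 of 7 AAV-miR-34b/c mice were above all vehicle mice. *Mvk* was at 29.9, 23.7, 26.2, 23.7 and 19.3 CPM in vehicle mice, 18.1 to 43.2 CPM in AAV-GFP mice (median 30.2 CPM) and 34.1 to 48.0 CPM in AAV-miR-34b/c mice (median 42.3 CPM). Every AAV-miR-34b/c mouse exceeded every vehicle mouse for *Mvk* (log2 fold change 0.76 ± 0.16 SE, edgeR adjusted p = 0.004905). Neither passed edgeR's test against AAV-GFP, with log2 fold changes of 0.39 for *Acat2* (adjusted p = 0.133) and 0.47 for *Mvk* (adjusted p = 0.164), and both calls against vehicle were lost with close pairs summed (adjusted p = 0.138 and 0.0676). DESeq2 called *Acat2* over AAV-GFP (adjusted p = 0.0490). *Idi1*, encoding isopentenyl diphosphate isomerase, rested on 4 to 37 counts per library and had log2 fold changes of -0.82, -0.71 and 0.10 in the 3 comparisons (adjusted p = 0.164, 0.171 and 0.939).

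**Figure D4:**
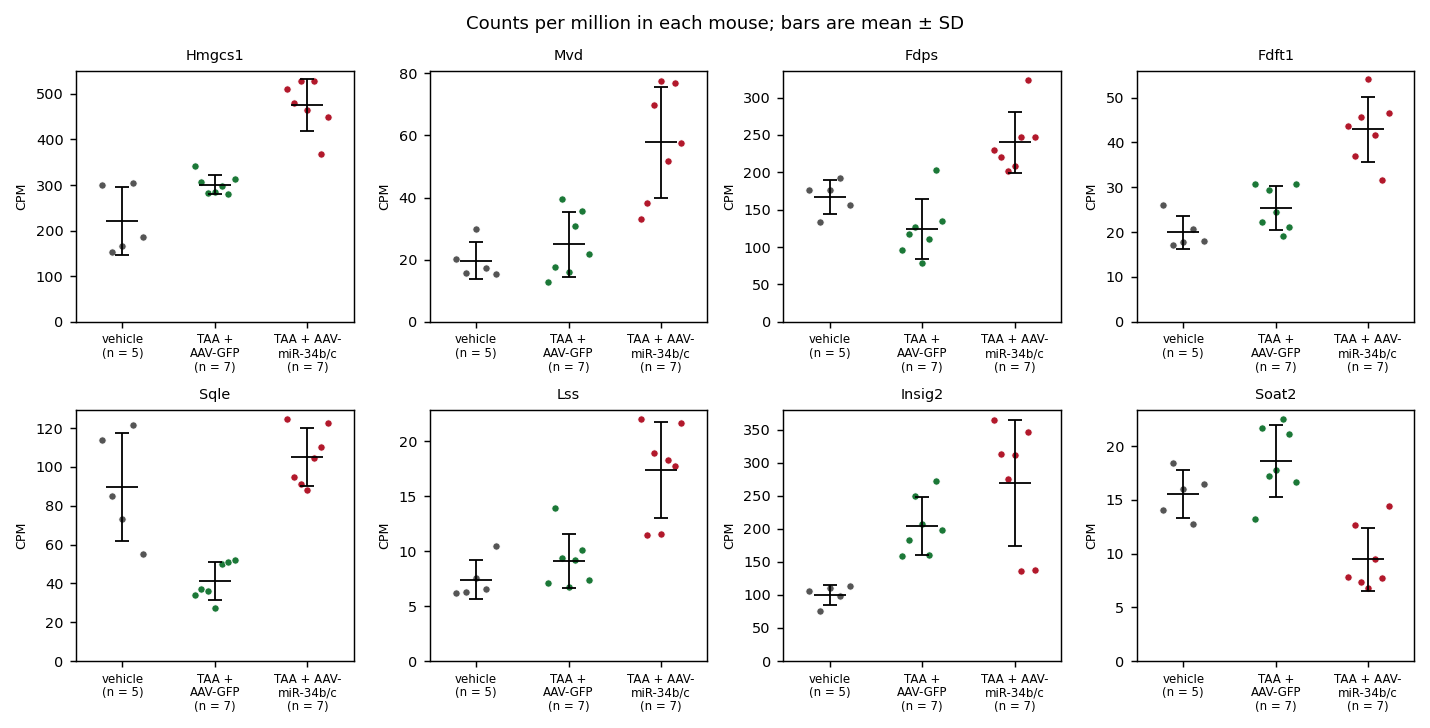
Level in CPM (vertical axes) of 8 members in each mouse (points) of the 3 groups, with mean ± SD (bars). *Sqle* is lower in all AAV-GFP mice than in all others, *Insig2* is higher in all TAA-treated mice than in vehicle mice, and *Soat2* is lower in 6 of 7 AAV-miR-34b/c mice than in all others.

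At the prenyl diphosphate branch point, *Fdps* (ENSMUSG00000059743, chromosome 3, 89093588 to 89101959) encodes farnesyl diphosphate synthase. Its level was 176, 134, 176, 192 and 156 CPM in vehicle mice. AAV-GFP mice had 79.1 to 203 CPM (median 117 CPM), with AAV-GFP mouse 6 at 203 CPM and the others at most 135 CPM. AAV-miR-34b/c mice had 201 to 324 CPM (median 230.3 CPM), above all vehicle mice and, but for AAV-miR-34b/c mouse 3 at 201 CPM, above all AAV-GFP mice. *Fdps* rose 1.92-fold over AAV-GFP (log2 fold change 0.94 ± 0.18 SE, edgeR adjusted p = 0.00500) and 1.44-fold over vehicle (log2 fold change 0.53 ± 0.15 SE, adjusted p = 0.0188). Both calls were lost with close pairs summed (adjusted p = 0.0779 and 0.122). An annotated gene on the same strand, *Gm43738*, shares exons with the last 500 bases of *Fdps*, and how reads of such genes were assigned is not given in the sources used here. *Ggps1*, which makes geranylgeranyl diphosphate for protein prenylation, overlapped in all groups (9.07 to 23.1 CPM) and had log2 fold changes of -0.15, -0.15 and -0.02 (adjusted p = 0.720, 0.705 and 0.986).

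In the squalene steps, *Sqle* set AAV-GFP mice apart from both other groups. *Sqle* (ENSMUSG00000022351, chromosome 15, 59315077 to 59331192) encodes squalene epoxidase, a rate-limiting enzyme of the sterol branch. Vehicle mice had 114, 85.2, 72.9, 122 and 55.1 CPM. In AAV-GFP mice the level was 27.4 CPM at the lowest, 37.0 CPM at the median and 51.9 CPM at the highest, and in AAV-miR-34b/c mice 88.0, 104 and 124 CPM. All AAV-GFP mice were below all vehicle and all AAV-miR-34b/c mice, and the latter groups overlapped. *Sqle* fell to 0.457 of the vehicle level in AAV-GFP mice (log2 fold change -1.13 ± 0.21 SE, edgeR adjusted p = 0.002025) and was 2.55-fold higher in AAV-miR-34b/c than in AAV-GFP mice (log2 fold change 1.35 ± 0.16 SE, adjusted p = 0.000103). Between AAV-miR-34b/c and vehicle the log2 fold change was 0.23 ± 0.19 SE (adjusted p = 0.397). Both calls held with each mouse left out in turn, where log2 fold changes were -1.26 to -0.99 and 1.27 to 1.41, and with close pairs summed (adjusted p = 0.0262 and 0.00740).

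*Fdft1* (ENSMUSG00000021273, chromosome 14, 63145150 to 63179578) encodes squalene synthase, which commits farnesyl diphosphate to sterols. Levels were 26.1, 17.1, 17.8, 20.8 and 18.1 CPM in vehicle mice, 19.1 to 30.7 CPM (median 24.5 CPM) in AAV-GFP mice and 31.6 to 54.1 CPM (median 43.7 CPM) in AAV-miR-34b/c mice. AAV-miR-34b/c mice lay above both other groups, which overlapped. *Fdft1* rose 1.68-fold over AAV-GFP (log2 fold change 0.75 ± 0.16 SE, edgeR adjusted p = 0.0125) and 2.15-fold over vehicle (log2 fold change 1.10 ± 0.18 SE, adjusted p = 0.000972). In the former the call was lost with close pairs summed (adjusted p = 0.128). The last 500 bases of *Fdft1* overlap exons of *Ctsb*, a cathepsin gene on the opposite strand, whose own log2 fold changes were 0.22 over AAV-GFP (edgeR adjusted p = 0.515) and 0.32 over vehicle (adjusted p = 0.150). The strand setting of the counting is not given in the sources used here.

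Of the 9 enzymes that turn squalene epoxide and lanosterol into cholesterol, 2 were called higher over AAV-GFP (with 1.95% of all genes) and 1 over vehicle (with 12.2% of all genes, a share near that of these enzymes) in AAV-miR-34b/c mice. *Lss* (ENSMUSG00000033105, chromosome 10, 76531588 to 76557138) encodes lanosterol synthase, which closes the sterol rings. It was at 6.18, 6.25, 7.56, 6.60 and 10.5 CPM in vehicle mice, 6.71 to 13.9 CPM (median 9.21 CPM) in AAV-GFP mice and 11.4 to 22.04 CPM (median 18.3 CPM) in AAV-miR-34b/c mice, on 17 to 85 counts per library. Vehicle mice all lay below AAV-miR-34b/c mice, while AAV-GFP mouse 2 at 13.9 CPM overlapped with AAV-miR-34b/c mice 2 and 4. *Lss* rose 1.90-fold over AAV-GFP (log2 fold change 0.92 ± 0.22 SE, edgeR adjusted p = 0.0206) and 2.38-fold over vehicle (log2 fold change 1.25 ± 0.24 SE, adjusted p = 0.002625). The call over AAV-GFP was lost without AAV-GFP mouse 1 (edgeR adjusted p = 0.0539), with library size alone (0.0658) and with the replicate number as a block (0.104). It was also lost with the 3 libraries that stood apart left out (0.132).

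*Dhcr7* (ENSMUSG00000058454, chromosome 7, 143823145 to 143848410) encodes 7-dehydrocholesterol reductase, which completes one branch of the route. Vehicle mice had 72.8, 45.1, 66.2, 77.5 and 58.3 CPM, AAV-GFP mice 39.7 to 58.3 CPM (median 45.6 CPM) and AAV-miR-34b/c mice 56.5 to 99.8 CPM (median 66.0 CPM). AAV-GFP mouse 4 reached the AAV-miR-34b/c range and the others stayed below it. *Dhcr7* rose 1.54-fold over AAV-GFP (log2 fold change 0.62 ± 0.16 SE, edgeR adjusted p = 0.0344), a call that was lost in 7 of 14 fits with 1 mouse left out (AAV-GFP 1, 2, 3, 5 or 7 or AAV-miR-34b/c 1 or 2) and with close pairs summed. It did not pass against vehicle in AAV-miR-34b/c mice (log2 fold change 0.18, adjusted p = 0.51). Nor did it in AAV-GFP mice (-0.45, adjusted p = 0.0784). There it was called lower without vehicle mouse 2 (adjusted p = 0.0374) and with the replicate number as a block (0.0401).

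Next to the threshold were *Cyp51* and *Msmo1*, encoding the demethylases that remove methyl groups of lanosterol. *Cyp51* was at 336, 158, 246, 279 and 226 CPM in vehicle mice, 126 to 290.3 CPM (median 169 CPM) in AAV-GFP mice and 218 to 431 CPM (median 304 CPM) in AAV-miR-34b/c mice. *Msmo1* was at 267, 156, 209, 256 and 228 CPM in vehicle mice, 91.6 to 262 CPM (median 164 CPM) in AAV-GFP mice and 219 to 347 CPM (median 271 CPM) in AAV-miR-34b/c mice. For both genes AAV-GFP mice 6 and 7 lay highest in their group and reached the AAV-miR-34b/c range. Neither passed against vehicle, with log2 fold changes of 0.30 and 0.34 in AAV-miR-34b/c mice (edgeR adjusted p = 0.292 and 0.152). In AAV-GFP mice they were -0.38 and -0.40 (adjusted p = 0.221 and 0.220). There both were called lower with the replicate number as a block (adjusted p = 0.0130 and 0.00523). Over AAV-GFP, log2 fold changes were 0.67 ± 0.19 SE for *Cyp51* (edgeR adjusted p = 0.06445) and 0.73 ± 0.20 SE for *Msmo1* (adjusted p = 0.0523). DESeq2 called both (adjusted p = 0.0219 and 0.0154), as did 3 of 14 fits with 1 mouse left out (AAV-GFP 6 or 7 or AAV-miR-34b/c 6). Both were also called with all 3 groups in 1 fit (edgeR adjusted p = 0.0426 and 0.0244). *Msmo1* alone was called with no filter (0.0464) and with at least 10 counts in every library (0.0448). With close pairs summed the adjusted p was 0.366 and 0.362 (edgeR). Exons of *Akap9*, on the opposite strand, overlap the last 500 bases of *Cyp51*, and its log2 fold change was 0.16 (adjusted p = 0.863).

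The remaining sterol enzymes did not pass edgeR's test in any comparison. DESeq2 called *Nsdhl* in AAV-miR-34b/c mice over vehicle (log2 fold change 0.44, adjusted p = 0.0486), where edgeR gave 0.0643 and called it with at least 10 counts in every library (adjusted p = 0.0477) and without AAV-miR-34b/c mouse 4 (adjusted p = 0.0480). Over AAV-GFP, log2 fold changes were 0.46 for *Nsdhl* and 0.14 for *Hsd17b7*, which act in removal of the C4 methyl groups, 0.38 for *Ebp*, the sterol isomerase, 0.12 for *Tm7sf2*, a C14 reductase, and -0.03 for *Sc5d*, the C5 desaturase (edgeR adjusted p = 0.139, 0.789, 0.169, 0.894 and 0.960). Exact permutation tests of the single genes, unadjusted, gave p = 0.00758 for *Nsdhl* and 0.00641 for *Ebp* there. With library size alone as the scaling, the values of *Tm7sf2* and *Hsd17b7*, and likewise those of *Idi1* and *Srebf2*, turned negative. *Tm7sf2* and *Sc5d* were uneven among AAV-miR-34b/c mice, with mice 1 and 2 at 72.2 and 59.6 CPM of *Tm7sf2* and the other 5 at 18.6 to 35.8 CPM. For *Sc5d*, mice 1 and 2 had 567 and 572 CPM and the others 272 to 426 CPM. Mice 1 and 2 are a close pair and also had the highest neutrophil marker sums.

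**Figure D5:**
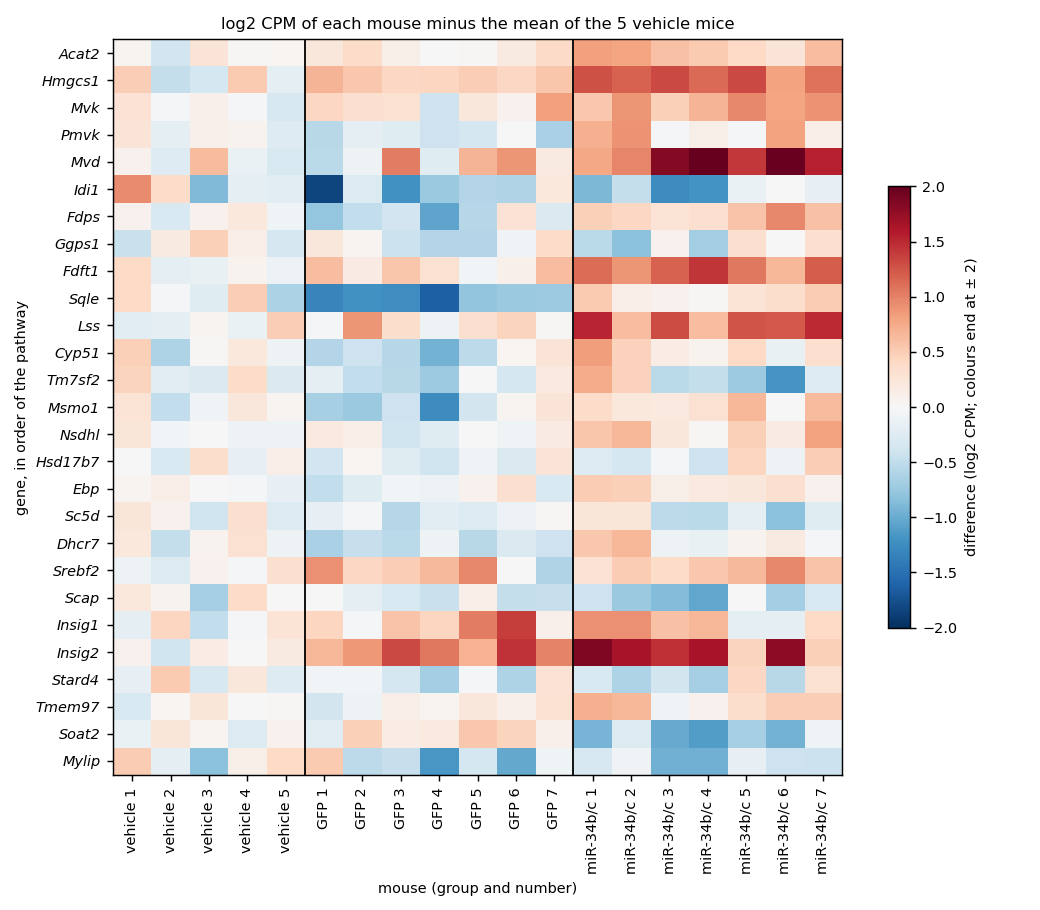
Level of the 27 members (rows, in pathway order) in each of the 19 mice (columns, with lines between groups), as the difference in log2 CPM from the mean of the 5 vehicle mice (colour). *Sqle* is blue in all AAV-GFP mice, *Hmgcs1*, *Mvd*, *Fdft1* and *Lss* are red in all AAV-miR-34b/c mice, and *Insig2* is pale in AAV-miR-34b/c mice 5 and 7.

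Of the 4 control genes of SREBP2, 1 was called higher in AAV-GFP mice against vehicle (7.54% of all genes were), 2 were called higher and 1 lower in AAV-miR-34b/c mice against vehicle (12.2% and 9.75% of all genes were), and 0 passed between the TAA-treated groups (edgeR), where 0 also had an unadjusted p under 0.05 and 0 were called by DESeq2. *Insig2* (ENSMUSG00000003721, chromosome 1, 121304353 to 121332589) encodes the retention protein whose liver isoform has a promoter of its own. Its level was 105, 75.0, 109.8, 98.5 and 113 CPM in vehicle mice, 158 to 273 CPM (median 198 CPM) in AAV-GFP mice and 136 to 365 CPM (median 311 CPM) in AAV-miR-34b/c mice. All TAA-treated mice exceeded all vehicle mice. Among AAV-miR-34b/c mice, the libraries that stood apart in clock genes, 5 and 7, were at 136 and 138 CPM, below all AAV-GFP mice, and the other 5 at 275 to 365 CPM. *Insig2* rose 2.03-fold in AAV-GFP mice (log2 fold change 1.02 ± 0.17 SE, edgeR adjusted p = 0.000989) and 2.69-fold in AAV-miR-34b/c mice (log2 fold change 1.43 ± 0.25 SE, adjusted p = 0.00126). Between the TAA-treated groups the log2 fold change was 0.39 ± 0.22 SE (adjusted p = 0.416). With the 3 libraries that stood apart left out, it was 0.64 (edgeR adjusted p = 0.0567). Counts at the 3′ end do not separate transcripts from its annotated starts.

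*Srebf2* (ENSMUSG00000022463), the gene of SREBP2 itself, was at 14.8, 13.2, 16.9, 15.6 and 20.1 CPM in vehicle mice, 10.2 to 31.6 CPM (median 22.7 CPM) in AAV-GFP mice and 19.7 to 31.8 CPM (median 23.5 CPM) in AAV-miR-34b/c mice. AAV-miR-34b/c mouse 1 overlapped with vehicle mouse 5, and the other 6 lay above all vehicle mice. It rose 1.502-fold over vehicle in AAV-miR-34b/c mice (log2 fold change 0.59 ± 0.18 SE, edgeR adjusted p = 0.0276). That call was lost in 4 of 12 fits with 1 mouse left out (vehicle 1, 2 or 4 or AAV-miR-34b/c 6, adjusted p = 0.0578 to 0.06755), and it held in 3 of 9 other alternatives, being lost with close pairs summed (adjusted p = 0.135), library size alone (0.0957), no filter (0.0596), all 3 groups in 1 fit (0.0698) and the 3 libraries left out (0.0754), among others. Between TAA-treated groups the log2 fold change was 0.08 (adjusted p = 0.917).

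*Scap* (ENSMUSG00000032485), the escort of the SREBP precursors, had 113, 103, 61.4, 126 and 96.5 CPM in vehicle mice, 69.96 to 107 CPM (median 78.8 CPM) in AAV-GFP mice and 47.0 to 96.3 CPM (median 60.3 CPM) in AAV-miR-34b/c mice. Vehicle mouse 3 lay within the AAV-miR-34b/c range and the other 4 vehicle mice above it. *Scap* fell in AAV-miR-34b/c mice against vehicle (log2 fold change -0.58 ± 0.20 SE, edgeR adjusted p = 0.0477), and was called in 3 of 12 fits with 1 mouse left out (vehicle 3 or AAV-miR-34b/c 1 or 5), with adjusted p up to 0.135 without vehicle mouse 4. *Insig1*, a partner of *Insig2* that the SREBPs themselves induce, had log2 fold changes of 0.60, 0.47 and -0.14 in the 3 comparisons (adjusted p = 0.0892, 0.136 and 0.854). AAV-GFP mice 5 and 6 had the most *Insig1*, at 181 and 233 CPM, and the highest vehicle mouse had 120.1 CPM.

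Among genes that handle sterols, *Soat2* (ENSMUSG00000023045, chromosome 15, 102150526 to 102163469) encodes the sterol O-acyltransferase that esterifies cholesterol in hepatocytes. It was at 14.1, 18.4, 16.01, 12.7 and 16.5 CPM in vehicle mice, 13.2 to 22.6 CPM (median 17.8 CPM) in AAV-GFP mice and 6.77 to 14.5 CPM (median 7.80 CPM) in AAV-miR-34b/c mice, on 17 to 103 counts per library. All but 1 of the AAV-miR-34b/c mice, mouse 7 at 14.5 CPM, lay below all other mice. *Soat2* fell to 0.504 of the AAV-GFP level (log2 fold change -0.99 ± 0.21 SE, edgeR adjusted p = 0.0108), a call that held in all 14 fits with 1 mouse left out and with close pairs summed (adjusted p = 0.0432). Against vehicle it fell to 0.611 (log2 fold change -0.71 ± 0.23 SE, adjusted p = 0.0390), and was called in 4 of 12 fits with 1 mouse left out (vehicle 4 or AAV-miR-34b/c 1, 2 or 7), with adjusted p up to 0.0832 without vehicle mouse 2.

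*Stard4*, a sterol carrier, *Tmem97*, a sterol-binding protein of the endoplasmic reticulum, and *Mylip*, which encodes a ligase that degrades lipoprotein receptors, did not pass edgeR's test. Over AAV-GFP their log2 fold changes were -0.02, 0.34 and -0.11 (edgeR adjusted p = 0.980, 0.273 and 0.908). Over vehicle, AAV-miR-34b/c mice had log2 fold changes of -0.23, 0.41 and -0.55 (adjusted p = 0.479, 0.0793 and 0.162). *Tmem97* was at 75.0 to 129 CPM in AAV-miR-34b/c mice and 61.4 to 98.3 CPM in AAV-GFP mice, with mice 1 and 2 of the former at 129 and 126 CPM. For it, exact permutation tests gave unadjusted p = 0.0332 over AAV-GFP and 0.0328 over vehicle, and edgeR called it over vehicle without AAV-miR-34b/c mouse 3 (adjusted p = 0.0488).

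Further genes around the pathway were counted by list. Of 10 genes of SREBP processing and sterol-regulated degradation, 0 of 9 tested passed over AAV-GFP (edgeR, with 0 at an unadjusted p under 0.05 and 0 by DESeq2). Against vehicle, *Syvn1*, which encodes a ligase of endoplasmic reticulum degradation, rose in AAV-GFP mice (log2 fold change 0.92, adjusted p = 0.00847), and *Rnf139*, another ligase gene, fell in both TAA-treated groups (log2 fold change -0.78, adjusted p = 0.0216, and -0.72, adjusted p = 0.0489). Of 5 genes that serve the sterol enzymes, 4 electron donors and the scaffold gene *Erg28*, 0 passed over AAV-GFP (edgeR, with 0 at an unadjusted p under 0.05 and 0 by DESeq2), whereas *Por*, the reductase that feeds CYP51 and squalene epoxidase, fell in AAV-GFP mice against vehicle (log2 fold change -1.28 ± 0.16 SE, adjusted p = 5.36e-05). *Por* also fell in AAV-miR-34b/c mice against vehicle (log2 fold change -0.87, adjusted p = 0.0168), and *Cyb5b* and *Cyb5r3* rose in both. The non-sterol branch of isoprenoid use had 0 of 11 called over AAV-GFP (edgeR, with 1 at an unadjusted p under 0.05 and 0 by DESeq2) and 1 higher (*Zmpste24*) and 1 lower (*Coq2*) of 10 in AAV-miR-34b/c mice against vehicle. Cholesterol efflux, transport and storage had 0 of 15 called over AAV-GFP (edgeR, with 2 at an unadjusted p under 0.05 and 1 by DESeq2), with 3 of 15 lower in AAV-miR-34b/c mice against vehicle, *Npc1*, *Abcg5* and *Nceh1*, and 1 of 15 higher in AAV-GFP mice against vehicle, *Lipa*, the lysosomal acid lipase gene (log2 fold change 0.67, adjusted p = 0.0167). These shares of called genes stand beside 7.54% higher and 5.19% lower of all genes in AAV-GFP and 12.2% and 9.75% in AAV-miR-34b/c mice against vehicle. *Npc1*, which exports cholesterol from lysosomes, fell to 0.505 of the vehicle level in AAV-miR-34b/c mice (log2 fold change -0.99, adjusted p = 0.00143).

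SREBP1 and fatty acid synthesis genes, 10 in number, had a median log2 fold change of 0.50 over AAV-GFP with 1 called higher, *Elovl6*, an elongase gene (log2 fold change 0.78 ± 0.16 SE, edgeR adjusted p = 0.0106). Against vehicle, *Fasn* and *Acaca* rose in AAV-GFP mice (log2 fold changes 0.86 and 0.85) and, with *Elovl6*, in AAV-miR-34b/c mice (1.38 and 1.58, with 0.73 for *Elovl6*). Feeding-responsive genes had 1 of 8 called over AAV-GFP, *G6pc*, a gene of glucose output, which fell (log2 fold change -1.18 ± 0.16 SE, adjusted p = 0.000279). *Igfbp1*, a fasting-induced gene, rose against vehicle in both groups. It was at 79.9 to 141 CPM in the 3 libraries that stood apart, within the vehicle range of 26.98 to 358 CPM, and at 722 CPM or more in the other 11 libraries of TAA-treated mice. Beside the calls of these lists, 1.95% of all genes were called higher and 1.42% lower over AAV-GFP. Called higher against vehicle were 7.54% of all genes in AAV-GFP and 12.2% in AAV-miR-34b/c mice. What part feeding had in the members' differences was not tested.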

How the data were processed

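Liver RNA of 19 mice (5 vehicle mice, 7 with AAV-GFP, 7 with AAV-miR-34b/c) was sequenced with a 3′ mRNA kit, single-end with 100-base reads. The values are raw counts per gene, which the authors deposited in one table without normalization. STAR and mm10 are named in the submitters' processing notes. The versions, annotation, strand setting and any molecular identifiers are not given in the sources used here, so that counts can include PCR duplicates.

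Counts were tested by the quasi-likelihood test of edgeR 4.0.16 (R 4.3.3). TMM scaling was used. Genes were kept by filterByExpr with a minimum count of 10, which is not required in every library, and a minimum total of 15. Each fit held 2 groups without covariates. Benjamini-Hochberg adjustment covered all genes tested, and the threshold was 0.05. Standard errors belong to the log2 fold changes of these fits and include the spread between libraries as well as counting error. Single members were also compared on log2 CPM by an exact permutation test, two-sided, with a prior count of 2, which cannot go below 0.00126 for 5 mice against 7 and 0.000583 for 7 against 7. The procedure was tested on simulated data. Ensembl identifiers were matched to symbols and positions in GENCODE for GRCm38 (mm10), and promoters from RefSeq.

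The members and lists were chosen with earlier results of these data known. Named are all 27 members and, of pathway lists, genes past the threshold, at most 3 a list and comparison by smallest adjusted p, some of which are not reported here. Clock and cell type lists are mostly given as counts and sums. Alternatives were DESeq2's size factors, library size alone, no filter, at least 10 counts in every library, DESeq2 1.42.0, all 3 groups in 1 fit, the replicate number as a block, close pairs summed (coefficient of variation under 0.2), each mouse left out in turn, a prior count of 0.5, a looser sterol motif and, chosen after the data were seen, 3 libraries that stood apart left out.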

Additional observations from a re-analysis of the deposited data

Results flagged for a closer look

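In vehicle mice, *Nsdhl*, which encodes a sterol dehydrogenase, was at 5.98 log2 CPM in mouse 1 and at 5.73 log2 CPM or less in the other 4, a gap that is large for the range of the group. The total count of AAV-GFP library 5 was 4383805, with the next at 3239809, and was far from the rest of its group in the same sense. Both came from 93 groups of values examined, of which about 1 in 20 would be picked out by chance, or 4.65.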

How the results depend on the processing

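Called members kept their direction under every alternative run. Between AAV-GFP and vehicle, both members called passed in 42 of 42 fits, for AAV-miR-34b/c over vehicle the 11 passed in 192 of 231, and between the TAA-treated groups the 9 passed in 184 of 207. The causes of the changes below were not tested. Fits with libraries summed or left out also held fewer samples. With close pairs summed, 5 members were called for AAV-miR-34b/c over vehicle and 3 between the TAA-treated groups, and over all genes 227, 331 and 87 were called in the 3 comparisons in place of 1212, 2037 and 311. Replicate numbers did not pair the mice, since deviations of same-numbered mice correlated by -0.20 to 0.41, -0.39 to 0.48 and, between the TAA-treated groups, -0.45 to 0.32, and 2 of 5, 0 of 5 and 1 of 7 mice correlated best with their own number. With the replicate number as a block, 9, 7 and 6 members and 3088, 922 and 142 of all genes were called. Between the TAA-treated groups, library size alone as the scaling gave 624 genes and a member median of 0.18, and DESeq2 gave 572 genes.

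With each mouse left out in turn, 2 to 4 members were called between AAV-GFP and vehicle (4 without AAV-GFP mouse 7), with 689 to 1859 of all genes, and 8 to 11 members between AAV-miR-34b/c and vehicle, with 1267 to 2695 of all genes. Between the TAA-treated groups 6 to 11 members were called, with 209 to 344 of all genes, and without AAV-GFP mouse 1 the 8 higher members became 5. Between AAV-GFP and vehicle the lowest count of all genes was without vehicle mouse 4 and the highest without AAV-GFP mouse 6. Counts over 1.5 times lower also came without vehicle mouse 1 (728) and AAV-GFP mouse 3 (806). Between AAV-miR-34b/c and vehicle, counts over 1.5 times lower came without vehicle mouse 1 (1328) and vehicle mouse 4. With AAV-GFP 7 and AAV-miR-34b/c 5 and 7 left out, 4 members were called between AAV-GFP and vehicle, and 1352 of all genes between AAV-miR-34b/c and vehicle. The looser sterol motif was found in 2 members in place of 1. Exact permutation p-values of single members stayed on the same side of 0.05 with a prior count of 0.5.

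Log2 fold changes that changed sign were all of members that did not pass. For *Nsdhl* (AAV-GFP against vehicle) they were 0.0435 with library size alone, 0.00766 with at least 10 counts in every library and -0.0672 to 0.0563 with a mouse left out. For *Hsd17b7* (AAV-miR-34b/c against vehicle) they were 0.00385 with no filter, 0.0168 with at least 10 counts in every library, 0.0395 with close pairs summed and -0.103 to 0.0904 with a mouse left out. Between the TAA-treated groups, library size alone gave -0.08 for *Idi1*, -0.11 for *Tm7sf2*, -0.0317 for *Hsd17b7* and -0.11 for *Srebf2*, close pairs summed gave 0.0577 for *Ggps1*, and leaving out the 3 libraries gave -0.0307 for *Hsd17b7* and -0.0707 for *Srebf2*. There, with a mouse left out, values ran from -0.115 to 0.0759 for *Ggps1*, -0.0540 to 0.306 for *Idi1*, -0.222 to 0.0354 for *Insig1*, -0.223 to 0.119 for *Mylip*, -0.129 to 0.0535 for *Sc5d*, -0.0498 to 0.181 for *Srebf2*, -0.159 to 0.0673 for *Stard4* and -0.114 to 0.246 for *Tm7sf2*. At this depth, genes such as *Idi1*, with 4 to 37 counts per library, carry wide errors.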
